A study of Homo sapiens with 28 samples.

Results

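Antisense, overlapping and intronic transcript genes are non-coding RNA genes named after the gene they lie in or beside, with the ending -AS for antisense, -OT for overlapping transcript or -IT for intronic transcript and a digit. They were followed in CHL-1, an established human melanoma cell line, under an inhibitor of the BET bromodomain proteins. The array named 900 such genes through probe sets that name 1 gene only. A probe set was kept when its log2 intensity was above 5 on at least 4 of the 28 arrays, and IL6-AS1 and STEAP1B-AS1 were left out. That gave 64 members of 22357 genes named on the array, of which 61 end in -AS, 2 in -OT and 1 in -IT, while 836 genes of the same pattern stayed below the filter. They were chosen by their log2 intensity on these arrays, so their levels are given as a description. Just inside the filter, the fourth highest log2 value was 5.02 for MMP25-AS1 and 5.04 for both C10orf95-AS1 and TRIM52-AS1. Just outside it were NCBP2-AS1 at 4.9952 and ASH1L-AS1 at 4.99, with another MMP25-AS1 probe set at 4.98.

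Cells had been treated with BAY1238097 at 75 nM or 468 nM, or with the solvent DMSO, for 4 h or 24 h. Each dose and time had 5 arrays and DMSO had 4 arrays at each time, all from CHL-1 cells. The labels do not say whether the arrays of 1 group stem from separate cultures. The p-values therefore rest on the spread among these arrays, which could be technical only. Values are log2 of the deposited array intensity, and a gene was called higher or lower at a limma p-value below 0.05 after Benjamini-Hochberg adjustment over all 9285 genes tested.

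BET proteins bind acetylated histones through their bromodomains and bring the elongation factor P-TEFb to RNA polymerase II. Many human promoters start transcription in both directions, and an antisense gene often begins close to the start of its sense gene on the other strand. Such transcripts are commonly short-lived, because the nuclear exosome degrades them, while some are stable long non-coding RNAs. Antisense RNAs are known to act on their sense gene in some cases, and in others the act of transcription or nothing beyond shared chromatin is involved.

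The median log2 intensity of single arrays was 2.44 to 2.49, and values are thus relative within an array. Of 8 listed melanocyte markers 2 passed the filter, SOX10 and S100B, so the labelled lineage is seen in these 2 genes only. SOX10 fell by 0.73 at 468 nM and 4 h and rose by 0.58 at 24 h, while S100B had 0.54 at 4 h and 0.31 at 24 h and was not called. The part of these markers in the results was not tested. The values are of bulk RNA, in which fewer cells of a type and less RNA per cell cannot be told apart. Of 6 leukocyte markers 1 passed, CD68, and no keratinocyte, fibroblast or endothelial marker did. CD68, a lysosomal protein of macrophages, rose by 0.81 at 468 nM and 4 h and its part in the results there was not tested, while its log2 difference at 24 h was -0.02. HEXIM1, which encodes an inhibitor of P-TEFb and often serves as a marker of BET inhibitor action, was higher by 1.67 (log2) at 468 nM and 4 h (adjusted p = 5.20e-10). At 468 nM and 24 h 3 of 8 reference genes were called higher and 3 lower, and at 4 h none was. When arrays were shifted by the level of these 8 genes, the median change of all genes became -0.1501 at 4 h and -0.1021 at 24 h for 468 nM against DMSO. The split of calls over all genes then became 179 higher and 890 lower at 4 h (368 and 645 without the shift) and 1200 higher and 2472 lower at 24 h (1896 and 2335 without it).

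Promoters are shown 5′ to 3′ on the gene's own strand, from 250 bases before to 50 after the start in RefSeq (GRCh38.p14). They belong to some of the members with the lowest adjusted p, for their own change or the difference from their sense gene, and to some sense genes. Capitals mark exact matches on either strand to CCAAT (the CCAAT box), GGGCGG (the GC box bound by SP factors) and CACGTG (the E-box bound by MYC and MAX), and overlapping matches are counted separately. TMPO-AS1 and TMPO fell together and start on opposite strands within 1000 bases of each other (chr12:98516177-98516476, minus strand, and chr12:98515323-98515622, plus strand). SLC9A3-OT1 and SLC9A3 rose together from starts farther apart on the same strand (chr5:472916-473215 and chr5:524400-524699, both minus strand). TMEM9B-AS1 (chr11:8964425-8964724, plus strand) had the highest log2 difference at 468 nM and 24 h. It was above log2 5 on only 1 array outside that group, so it is a member through the group in which it is high. OIP5-AS1 (chr15:41283740-41284039, plus strand) had a log2 difference near 0 while its sense gene fell. Its mean log2 intensity over all arrays was 4.70, so this flat value was read from a signal near background.
TMPO-AS1: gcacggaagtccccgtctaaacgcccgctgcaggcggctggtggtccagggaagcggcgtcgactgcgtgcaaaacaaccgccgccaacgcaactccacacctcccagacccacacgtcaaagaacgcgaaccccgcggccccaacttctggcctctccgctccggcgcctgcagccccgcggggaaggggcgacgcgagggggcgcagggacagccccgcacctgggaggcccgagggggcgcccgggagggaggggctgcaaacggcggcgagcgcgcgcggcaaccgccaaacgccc
TMPO: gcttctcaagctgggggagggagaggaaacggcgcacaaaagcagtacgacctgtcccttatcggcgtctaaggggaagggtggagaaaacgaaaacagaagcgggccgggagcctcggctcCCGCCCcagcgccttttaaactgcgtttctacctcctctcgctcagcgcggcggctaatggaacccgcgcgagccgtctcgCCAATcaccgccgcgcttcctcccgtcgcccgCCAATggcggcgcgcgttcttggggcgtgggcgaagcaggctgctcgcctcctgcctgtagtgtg
SLC9A3-OT1: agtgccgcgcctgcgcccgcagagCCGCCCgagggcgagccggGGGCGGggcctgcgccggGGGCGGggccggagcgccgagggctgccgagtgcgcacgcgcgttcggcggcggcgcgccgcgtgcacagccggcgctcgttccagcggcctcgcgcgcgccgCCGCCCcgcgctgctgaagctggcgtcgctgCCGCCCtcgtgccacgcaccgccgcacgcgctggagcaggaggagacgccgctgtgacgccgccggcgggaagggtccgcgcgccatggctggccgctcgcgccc
SLC9A3: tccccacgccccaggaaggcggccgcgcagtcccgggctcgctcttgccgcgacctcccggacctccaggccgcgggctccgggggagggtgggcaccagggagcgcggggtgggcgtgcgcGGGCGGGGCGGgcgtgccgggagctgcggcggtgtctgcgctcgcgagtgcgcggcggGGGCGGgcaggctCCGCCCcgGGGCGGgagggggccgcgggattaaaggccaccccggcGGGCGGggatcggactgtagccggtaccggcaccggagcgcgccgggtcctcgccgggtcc
TMEM9B-AS1: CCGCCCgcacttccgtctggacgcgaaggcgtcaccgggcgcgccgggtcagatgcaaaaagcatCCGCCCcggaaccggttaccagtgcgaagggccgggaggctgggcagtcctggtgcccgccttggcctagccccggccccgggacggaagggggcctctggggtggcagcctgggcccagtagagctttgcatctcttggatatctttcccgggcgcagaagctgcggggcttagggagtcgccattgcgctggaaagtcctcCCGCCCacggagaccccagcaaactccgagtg
OIP5-AS1: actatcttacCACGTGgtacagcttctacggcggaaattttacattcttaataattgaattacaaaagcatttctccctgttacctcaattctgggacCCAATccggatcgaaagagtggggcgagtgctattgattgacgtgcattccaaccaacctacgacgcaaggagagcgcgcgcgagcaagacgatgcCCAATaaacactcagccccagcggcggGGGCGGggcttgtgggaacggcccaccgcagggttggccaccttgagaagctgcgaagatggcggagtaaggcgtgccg

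Among these 6 windows, TMPO-AS1 held none of the 3 motifs, while TMPO held 2 CCAAT boxes and 1 GC box. The windows of FOXD2-AS1 and TMEM44-AS1, picked by the same rule but not shown, also held none of the 3. SLC9A3-OT1 held 5 GC boxes and SLC9A3 held 6. OIP5-AS1 held the 1 E-box, with 2 CCAAT boxes and 1 GC box. Of the 64 members, 56 had a promoter in the table, with a median of 24 CpG dinucleotides, against a median of 14 over all 27305 promoters. A GC box was in 51.8% of member promoters and 44.6% of all, a CCAAT box in 35.7% of both, and an E-box in 12.5% of member promoters and 7.43% of all. TATAAA (the TATA box) was in 1.79% of member promoters and 12% of all. TGACTCA (AP-1) was in 5.36% of member promoters and 4.92% of all, and an NF-kB motif in 1.79% of member promoters (1 of 56) and 0.194% of all. A match is a description of letters and not a binding site.

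At 468 nM, 8 of the 63 members that represent their gene in the tested table (12.7%) were called at 4 h, and all 8 were lower. Over all genes tested, 10.9% were called at 4 h, 3.96% higher and 6.95% lower. At 24 h, 27 members (42.9%) were called, 17 higher and 10 lower, against a background of 45.6% of all genes, 20.4% higher and 25.1% lower. The members' share of calls was thus near the background at both times. Of the 17, TMEM9B-AS1, PSMG3-AS1 and CCNT2-AS1 passed the filter only through the 468 nM, 24 h arrays, so their levels there are given below as a description. The median log2 difference of the 63 members at 468 nM was -0.0903 at 4 h and 0.2792 at 24 h. That of all tested genes was -0.0270 at 4 h and -0.0190 at 24 h. With 75 nM, 0 members were called at 4 h by limma (0.679% of all genes), although 8 had an unadjusted p below 0.05. At 24 h with 75 nM, 2 were called (0.872% of all genes). In at least 1 of these 4 comparisons 31 members (49.2%) were called, against 49.8% of all genes. At 468 nM and 24 h the treated and DMSO arrays did not overlap for 19 members, 10 higher and 9 lower, against 30.1% of all genes in either direction. TMEM9B-AS1, PSMG3-AS1 and CCNT2-AS1 are among these 10, so that count is a description. The share of all genes was not split by direction.

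**Figure D1:**
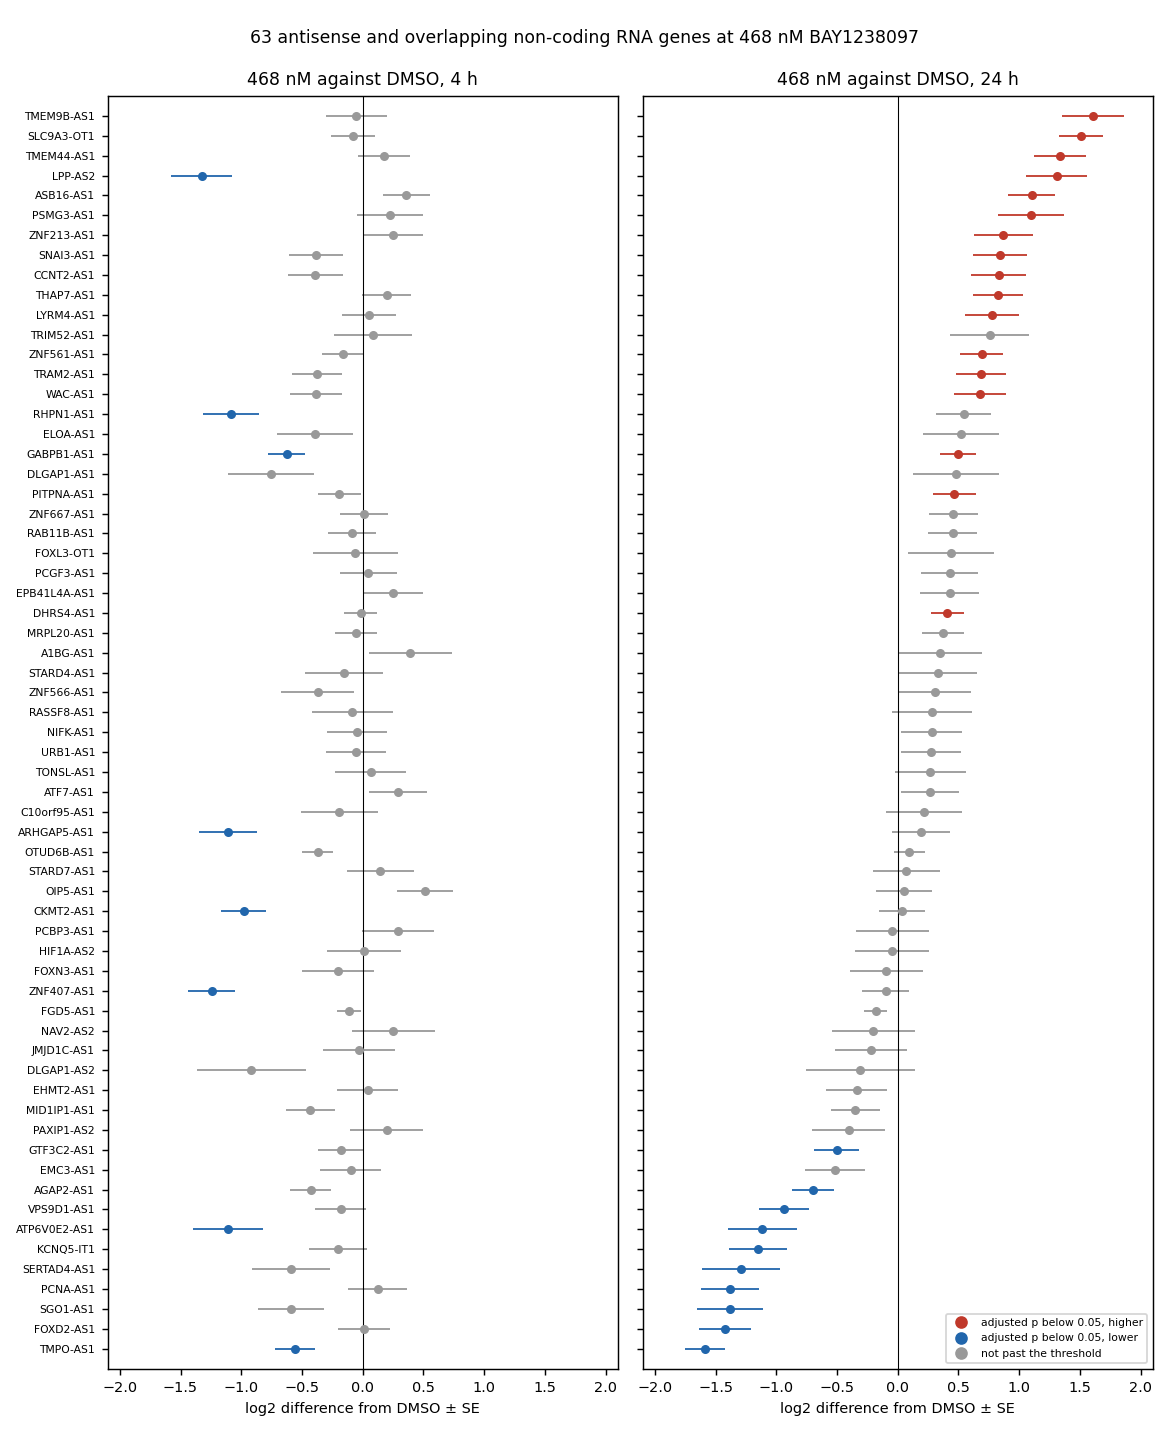
Log2 difference from DMSO (x axis, ± SE) at 468 nM for the 63 members, ordered by the difference at 24 h, at 4 h (left) and 24 h (right). Red and blue points passed the adjusted p of 0.05 as higher or lower. At 4 h all 8 coloured points are lower, and at 24 h 17 are higher and 10 lower.

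The members lower at 468 nM and 4 h lie beside genes of unlike function. LPP-AS2 is antisense to LPP, a LIM domain protein of focal adhesions. Its log2 intensity was 4.76, 4.68, 4.82, 3.98 and 3.78 in the 468 nM arrays, against 5.51, 6.15, 5.27 and 5.97 in the DMSO arrays. All 468 nM arrays were below all DMSO arrays, and LPP-AS2 fell by 1.32 ± 0.25 (SE, adjusted p = 6.07e-04). ZNF407-AS1 starts beside ZNF407, a zinc finger gene, and had 4.55, 4.34, 3.72, 4.56 and 4.09 with 468 nM, against 5.28, 5.98, 5.38 and 5.35 with DMSO. These groups did not overlap either, and the gene fell by 1.24 ± 0.19 (adjusted p = 5.97e-05). RHPN1-AS1, antisense to RHPN1, had 4.46, 4.61, 4.80, 4.99 and 4.50 at 468 nM, against 6.07, 5.51, 5.62 and 5.82 in DMSO. It fell by 1.08 ± 0.23 (adjusted p = 0.00182), again with no overlap.

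ARHGAP5-AS1, beside the gene of a GTPase-activating protein, averaged 5.43 ± 0.51 with 468 nM and 6.54 ± 0.42 with DMSO at 4 h (SD, n = 5 and n = 4). The fall of 1.11 had an adjusted p of 0.00208. CKMT2-AS1, antisense to a mitochondrial creatine kinase gene, averaged 4.84 ± 0.12 with 468 nM and 5.82 ± 0.24 with DMSO, a fall of 0.98 (adjusted p = 6.80e-04). Neither gene's groups overlapped. ATP6V0E2-AS1, beside a gene of the vacuolar proton pump, fell by 1.11 (adjusted p = 0.01), with overlapping groups. GABPB1-AS1, antisense to a subunit gene of the transcription factor GABP, fell by 0.63 (adjusted p = 0.00561), and TMPO-AS1 fell by 0.56 (adjusted p = 0.0257). The call of ATP6V0E2-AS1 was lost without DMSO 4 h replicate 3 (adjusted p = 0.0637). That of TMPO-AS1 was lost without any 1 of DMSO 4 h replicates 2 and 3 or 468 nM 4 h replicates 1, 3 and 5 (adjusted p up to 0.108), and without the filter on dim genes (0.0838).

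With 75 nM at 24 h, SLC9A3-OT1 was the 1 member called higher (0.398% of all genes) and KCNQ5-IT1 the 1 called lower (0.474%). SLC9A3-OT1 overlaps SLC9A3, the gene of the sodium-proton exchanger NHE3. Its log2 intensity was 9.01, 9.05, 8.80, 8.95 and 8.92 in the 75 nM arrays, against 7.57, 7.81, 8.29 and 8.18 in the DMSO arrays. Every treated array was above every DMSO array, and the gene rose by 0.98 ± 0.18 (adjusted p = 0.0084). KCNQ5-IT1, an intronic transcript of the potassium channel gene KCNQ5, had 4.61, 4.06, 4.50, 5.16 and 5.09 with 75 nM, against 5.55, 5.26, 6.01 and 6.197 with DMSO. It fell by 1.07 ± 0.24 (adjusted p = 0.0246) with no overlap. The KCNQ5-IT1 call was lost without any 1 of 75 nM 24 h replicates 2 and 3 or DMSO 24 h replicates 3 and 4 (adjusted p up to 0.0857), with only these groups in the fit (0.0822) and without the filter (0.0979).

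At 468 nM and 24 h, SLC9A3-OT1 was higher again. It had 9.24, 9.86, 9.26, 9.50 and 9.50 with 468 nM, against the DMSO values given for 75 nM, a rise of 1.51 ± 0.18 (adjusted p = 2.39e-07). TMEM9B-AS1, antisense to the gene of a lysosomal membrane protein, had 6.25, 5.73, 6.39, 5.26 and 6.33 with 468 nM, against 4.21, 4.76, 3.93 and 4.64 with DMSO. The log2 difference was 1.61 ± 0.25, but TMEM9B-AS1 was above log2 5 on only 1 array outside 468 nM at 24 h and so is a member through the group in which it is high. TMEM44-AS1, antisense to a membrane protein gene, had 6.67, 6.07, 6.77, 7.09 and 6.85 at 468 nM, against 5.22, 5.27, 5.13 and 5.79 in DMSO. It rose by 1.34 ± 0.22 (adjusted p = 1.55e-05), also without overlap. ASB16-AS1 averaged 7.12 ± 0.29 with 468 nM and 6.01 ± 0.28 with DMSO (SD, n = 5 and n = 4). PSMG3-AS1, beside a proteasome assembly chaperone gene, averaged 5.34 ± 0.33 with 468 nM and 4.25 ± 0.33 with DMSO. ASB16-AS1 rose by 1.10 (adjusted p = 4.56e-05). PSMG3-AS1 had a log2 difference of 1.10, and was above log2 5 on 0 arrays outside 468 nM at 24 h, so that it too is a member only through that group.

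Apart from LPP-AS2, the other members called higher at 468 nM and 24 h rose by smaller amounts. ZNF213-AS1 rose by 0.87, SNAI3-AS1 by 0.84 and THAP7-AS1 by 0.83, with adjusted p between 0.00162 and 0.00497. LYRM4-AS1 rose by 0.77, TRAM2-AS1 by 0.69, ZNF561-AS1 by 0.69 and WAC-AS1 by 0.68, with adjusted p between 0.00216 and 0.012. DHRS4-AS1 rose by 0.41 (adjusted p = 0.0161), and PITPNA-AS1, named after its value was seen, by 0.47 (adjusted p = 0.0331). CCNT2-AS1 had a log2 difference of 0.83, and the kept probe set of MMP25-AS1, which does not represent its gene in the table of 9285, had 1.01. Each was above log2 5 on only 2 arrays outside 468 nM at 24 h, so both are members through the group in which they are high. DHRS4-AS1 and WAC-AS1 lost their calls without DMSO 24 h replicate 3 (adjusted p = 0.0702 and 0.0732), and LYRM4-AS1 with only the compared groups in the fit (0.0544). DHRS4-AS1 also lost its call without the filter, with the reference gene shift and with only the compared groups (adjusted p between 0.0525 and 0.0728), and PITPNA-AS1 lost it in these 3 settings and without any 1 of DMSO 24 h replicates 1, 2 and 3 or 468 nM 24 h replicates 3, 4 and 5 (up to 0.101).

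Among the members lower at 468 nM and 24 h, TMPO-AS1 fell the most. TMPO-AS1 is antisense to TMPO, which encodes LAP2 proteins of the nuclear envelope. It had 5.07, 4.40, 4.89, 5.42 and 5.15 with 468 nM, against 6.58, 6.43, 6.44 and 6.82 with DMSO. The highest treated array was more than 1 log2 unit below the lowest DMSO array, and TMPO-AS1 fell by 1.59 ± 0.16 (adjusted p = 2.43e-08). PCNA-AS1, antisense to the gene of the DNA polymerase sliding clamp, had 5.24, 4.21, 4.92, 5.38 and 4.39 at 468 nM, against 6.32, 6.38, 6.47 and 5.67 in DMSO, a fall of 1.38 ± 0.24 (adjusted p = 4.59e-05). SGO1-AS1, antisense to the shugoshin gene that protects cohesion at centromeres, had 3.14, 2.86, 3.54, 3.77 and 3.50 at 468 nM, against 4.70, 4.95, 4.73 and 4.60 in DMSO. It fell by 1.38 ± 0.27 (adjusted p = 1.76e-04), and like PCNA-AS1 it showed no overlap of the groups. All these SGO1-AS1 values were below log2 5, so the size of its fall was read from a signal near background.

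FOXD2-AS1, beside the forkhead factor gene FOXD2, averaged 3.98 ± 0.33 with 468 nM and 5.40 ± 0.35 with DMSO at 24 h (SD, n = 5 and n = 4), and fell by 1.42. Its adjusted p was 6.63e-06. SERTAD4-AS1 fell by 1.29 (adjusted p = 0.00194), KCNQ5-IT1 by 1.15 (adjusted p = 3.08e-04) and ATP6V0E2-AS1 by 1.11 (adjusted p = 0.00237). VPS9D1-AS1 fell by 0.94 (adjusted p = 6.07e-04), AGAP2-AS1 by 0.70 (adjusted p = 0.00163) and GTF3C2-AS1, named after its value was seen, by 0.50 (adjusted p = 0.0317). Arrays overlapped for KCNQ5-IT1, where 468 nM replicate 2 stood at 5.43, and for GTF3C2-AS1, and for none of the other 8. The GTF3C2-AS1 call was lost without any 1 of DMSO 24 h replicates 2 and 3 or 468 nM 24 h replicates 3 and 5 (adjusted p up to 0.153), without the filter (0.0835) and with quantile normalization repeated (0.0543).

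The difference between the effect of 468 nM at 24 h and at 4 h was called for 19 members (30.2%), against 23.5% of all genes. The effect was more positive at 24 h for 15 (23.8%) and more negative for 4 (6.35%), against 10.8% and 12.7% of all genes. Of the 15, TMEM9B-AS1 and CCNT2-AS1 passed the filter only through the 468 nM, 24 h arrays that enter this difference. For 75 nM the difference between times was called by limma for 0 members (0.0323% of all genes), with 8 at an unadjusted p below 0.05. LPP-AS2 was lower at 4 h and higher at 24 h. Its 24 h values were 6.76, 7.54, 7.18, 6.51 and 7.002 with 468 nM, against 5.87, 6.01, 5.22 and 5.66 with DMSO, a rise of 1.31 ± 0.25 (adjusted p = 1.31e-04). The 2 effects differed by 2.63 (adjusted p = 1.04e-05). GABPB1-AS1 also had both calls: with 468 nM it averaged 4.73 ± 0.19 at 4 h and 5.41 ± 0.31 at 24 h, against 5.36 ± 0.29 and 4.91 ± 0.24 with DMSO (SD, n = 5 and n = 4). Its rise at 24 h was 0.49 (adjusted p = 0.00861), with overlapping arrays, and the effects differed by 1.12 (adjusted p = 3.82e-04).

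Of the others lower at 4 h, RHPN1-AS1 averaged 6.54 ± 0.23 with 468 nM and 5.99 ± 0.44 with DMSO at 24 h (SD, n = 5 and n = 4). Its log2 difference there was 0.54 (adjusted p = 0.0549), and its effects at the 2 times differed by 1.62 (adjusted p = 6.53e-04). ZNF407-AS1, ARHGAP5-AS1 and CKMT2-AS1 had log2 differences of -0.10, 0.19 and 0.03 at 24 h, none past the threshold, and the difference between times was called for each. ATP6V0E2-AS1 and TMPO-AS1 were the 2 of the 8 that were lower at both times. The 468 nM and 75 nM arrays differed for 3 members at 4 h, LPP-AS2, ARHGAP5-AS1 and ZNF407-AS1, all lower at 468 nM (2.56% of all genes, 1.13% higher and 1.43% lower), but for 1 without any 1 of 75 nM replicate 3 or 468 nM replicates 2, 4 and 5 and for 0 without the filter. At 24 h they differed for 18 members (28.6%), 10 higher and 8 lower at 468 nM, against 30.8% of all genes.

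**Figure D2:**
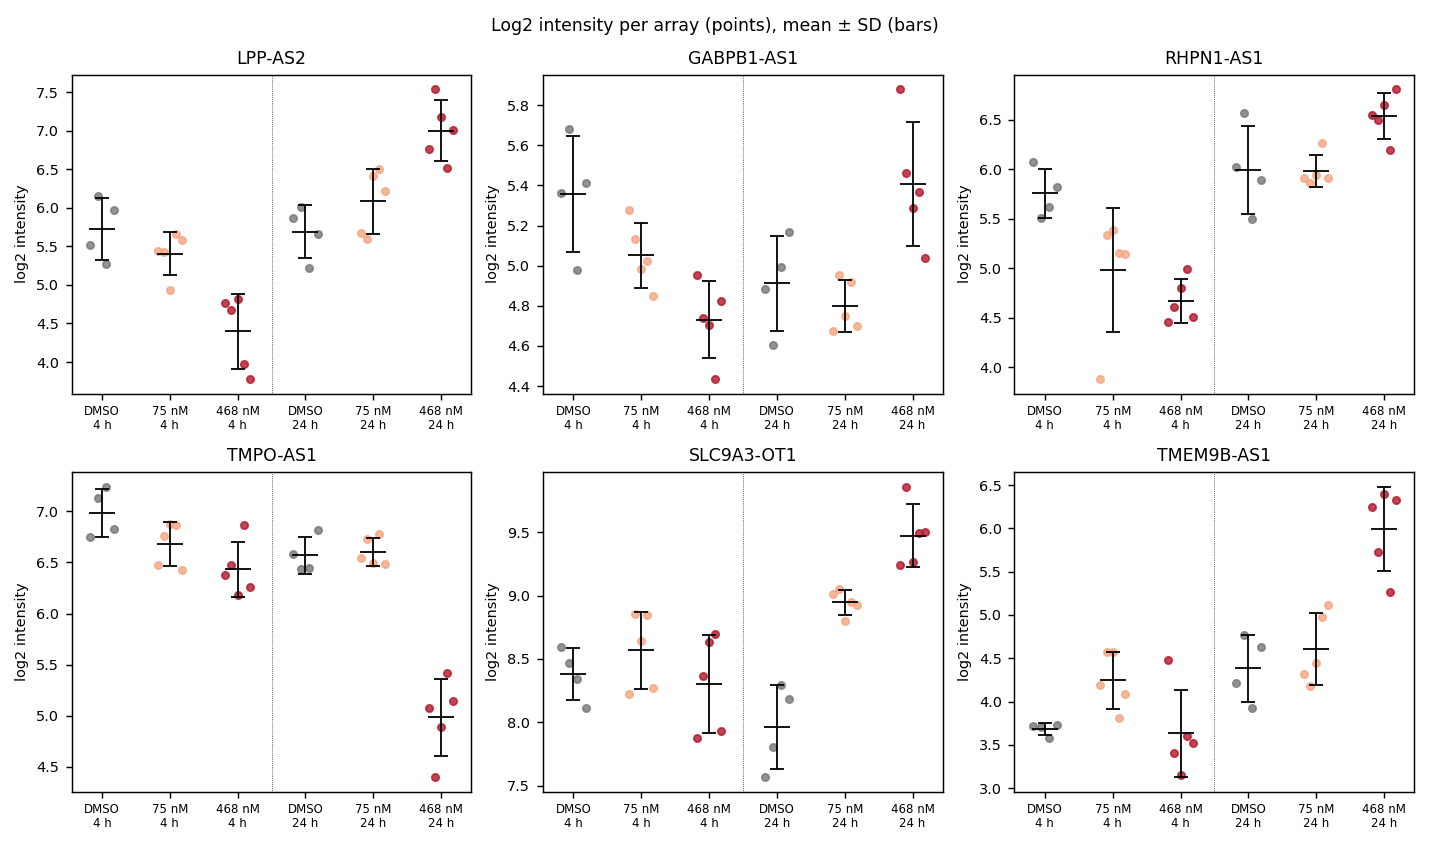
Log2 intensity of 6 members on every array (points), with the mean ± SD of each group (bars), for DMSO, 75 nM and 468 nM at 4 h and then 24 h. LPP-AS2, GABPB1-AS1 and RHPN1-AS1 are below DMSO at 468 nM and 4 h. TMPO-AS1 is lowest at 468 nM and 24 h, where SLC9A3-OT1 and TMEM9B-AS1 are highest. TMEM9B-AS1 is a member only through the 468 nM, 24 h arrays.

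A sense gene was looked up for every member by its name without the ending, which gave 63 names for 64 members. Both could be compared for 43 members. The sense gene did not pass the filter for 17 members, among them LPP, RHPN1, FGD5, AGAP2, ASB16, CKMT2, FOXD2 and TMEM9B, and had no probe set of its own for 4. The change of the member was set against that of its sense gene as the difference of log2 values on each array. The files give no probe positions, so where a member and another gene overlap on 1 strand their signals cannot be told apart, as for SLC9A3-OT1 and KCNQ5-IT1. At 468 nM and 24 h, 13 of the 43 differences were called (45.5% of all rows in that table), 11 with the member higher relative to its sense gene (1 of them PSMG3-AS1) and 2 lower. At 4 h 3 were called, all lower (10.9%), and with 75 nM 0 were called at either time by limma (0.675% and 0.868%), with 2 and 4 at an unadjusted p below 0.05.

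**Figure D3:**
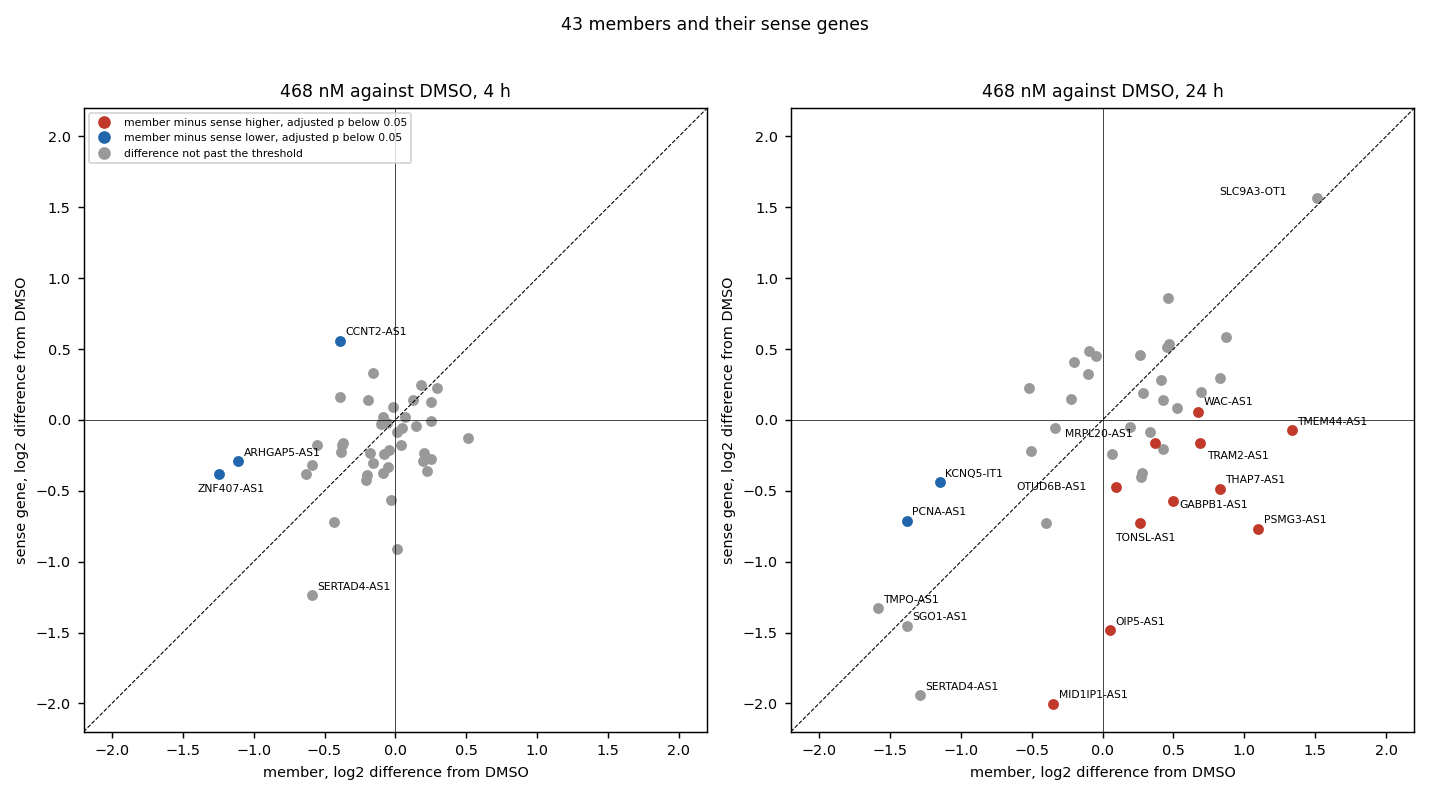
Log2 difference from DMSO at 468 nM of each member (x axis) and of its sense gene (y axis) for 43 pairs at 4 h (left) and 24 h (right); on the dashed line both changed equally. Coloured points are pairs whose difference passed the adjusted p of 0.05, 3 lower at 4 h, and 11 higher and 2 lower at 24 h.

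Both genes were called in the same direction at 468 nM and 24 h for 10 pairs, 6 lower and 4 higher. The 4 include the pair of CCNT2-AS1, a member only through the 468 nM, 24 h arrays. TMPO fell with TMPO-AS1. Its log2 intensity was 7.45, 7.65, 7.42, 7.85 and 7.57 with 468 nM, against 8.93, 8.98, 9.05 and 8.72 with DMSO, a fall of 1.33 ± 0.10 (adjusted p = 7.48e-11). SGO1 fell by 1.45 and SERTAD4 by 1.94 beside their antisense genes, and SERTAD4 was already lower by 1.24 at 4 h, where SERTAD4-AS1 had -0.59 (adjusted p = 0.293). None of these 3 pair differences was called, and their log2 values at 24 h were -0.26, 0.07 and 0.65, with 95% intervals of -0.59 to 0.08, -0.49 to 0.63 and -0.10 to 1.41. PCNA had 8.86, 9.12, 9.02, 9.72 and 9.31 at 468 nM, against 9.84, 10.15, 10.01 and 9.67 in DMSO, and its fall of 0.71 was smaller than that of PCNA-AS1 by 0.67 (adjusted p = 0.019). KCNQ5 fell by 0.44 (adjusted p = 0.0469), less than KCNQ5-IT1 by 0.71, a difference named after its value was seen (adjusted p = 0.0327). GTF3C2, a subunit gene of the RNA polymerase III factor TFIIIC, fell by 0.22 (adjusted p = 0.0285).

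SLC9A3 rose with SLC9A3-OT1 at both doses. At 24 h its arrays held 9.63, 9.50, 9.76, 9.43 and 9.97 with 468 nM, against 8.02, 8.07, 8.02 and 8.26 with DMSO, and the rise was 1.56 ± 0.19 (adjusted p = 2.11e-07). With 75 nM it was 0.90 (adjusted p = 0.0163), a call lost without DMSO 24 h replicate 3 (0.0528) and without the filter (0.0668). The SLC9A3-OT1 minus SLC9A3 difference was -0.05 at 468 nM, with a 95% interval of -0.38 to 0.28. The other 3 pairs with both genes called higher were those of ZNF213 (0.59), PITPNA, a phosphatidylinositol transfer protein gene (0.53), and CCNT2 (0.29), the gene of a cyclin of P-TEFb. CCNT2-AS1 is a member only through the 468 nM, 24 h arrays, so that pair is given as a description. The calls lost when 1 array was left out were those of PCNA-AS1 minus PCNA without DMSO 24 h replicates 1 and 3 or 468 nM 24 h replicates 2 and 5 (adjusted p up to 0.0634) and KCNQ5-IT1 minus KCNQ5 without 468 nM 24 h replicates 1, 3 and 5 or DMSO 24 h replicates 3 and 4 (up to 0.114). Those of KCNQ5 were lost without any 1 array other than 468 nM 24 h replicate 3 (up to 0.107), of CCNT2 without 468 nM 24 h replicate 2 or DMSO 24 h replicates 2 and 4 (up to 0.0995), and of GTF3C2 without 468 nM 24 h replicates 1 and 4 or DMSO 24 h replicate 1 (up to 0.0808). CCNT2 also lost its 24 h call with the reference gene shift (0.184), and KCNQ5 and GTF3C2 theirs without the filter (0.117 and 0.111). KCNQ5 lost it with quantile normalization repeated (0.0808), and CCNT2 and GTF3C2 with only the compared groups (0.111 and 0.155). CCNT2 lost it without the filter too (0.079). KCNQ5-IT1 minus KCNQ5 was lost without the filter (0.0813) and with only the compared groups (0.0561), and PCNA-AS1 minus PCNA with only the compared groups (0.0611).

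In 3 pairs the member was called higher and the sense gene lower at 468 nM and 24 h. For PSMG3-AS1, a member only through these arrays, the values are a description. PSMG3-AS1 had 5.38, 5.53, 5.11, 4.93 and 5.76 with 468 nM, against 4.57, 4.09, 3.86 and 4.46 with DMSO. PSMG3 had 6.97, 6.29, 6.80, 6.83 and 6.16 at 468 nM, against 7.32, 7.33, 7.52 and 7.35 in DMSO, and fell by 0.77 (adjusted p = 2.34e-04). The pair difference was 1.87 ± 0.37 (SE). THAP7-AS1 had 6.15, 6.37, 5.53, 6.23 and 6.56 with 468 nM, against 4.98, 5.60, 5.21 and 5.57 with DMSO, while THAP7, the gene of a chromatin-bound repressor, fell by 0.48 (adjusted p = 8.13e-04). Their difference was 1.31 ± 0.22 (adjusted p = 2.35e-05), although 468 nM replicate 3 of THAP7-AS1 lay among the DMSO arrays. GABPB1 had 6.32, 6.43, 6.45, 6.80 and 6.09 at 468 nM, against 6.97, 7.23, 7.16 and 6.59 in DMSO, and fell by 0.57 (adjusted p = 0.00124), and the GABPB1-AS1 minus GABPB1 difference was 1.06 ± 0.20 (adjusted p = 8.58e-05).

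**Figure D4:**
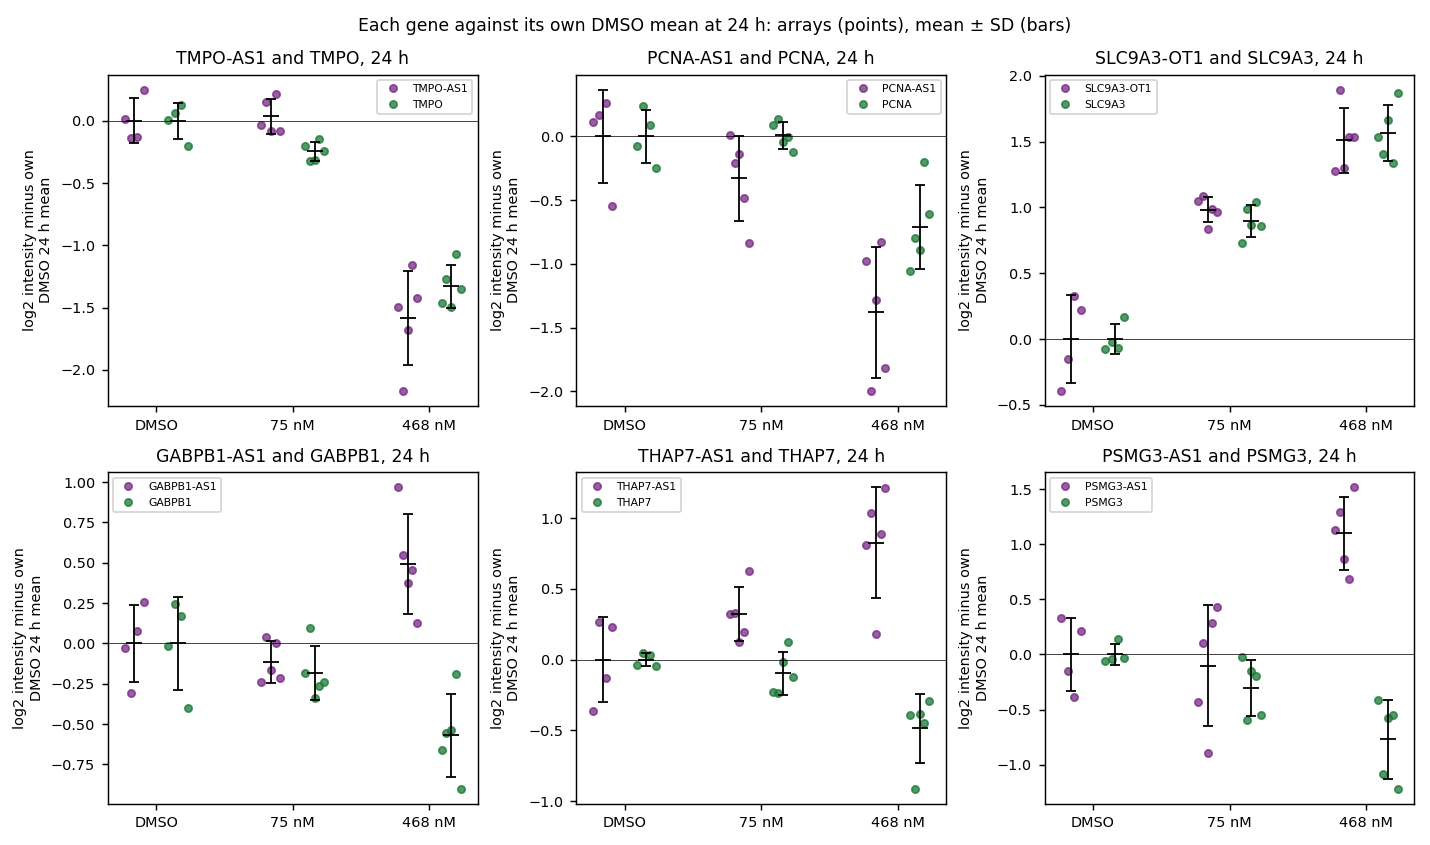
Log2 intensity at 24 h of 6 members (purple) and their sense genes (green), each minus the mean of its own DMSO arrays, for DMSO, 75 nM and 468 nM; points are arrays and bars the mean ± SD. In the upper row both genes of a pair lie on the same side of 0 at 468 nM, and in the lower row they lie on opposite sides.

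In 14 pairs the sense gene alone was called at 468 nM and 24 h, 6 higher and 8 lower, and 4 of the 8 lower ones had a called pair difference. OIP5 encodes a subunit of the Mis18 complex at centromeres, and OIP5-AS1, also known as cyrano, is a long non-coding RNA conserved among vertebrates. OIP5 had 4.93, 3.93, 5.16, 5.80 and 4.16 with 468 nM, against 6.61, 6.06, 6.69 and 5.76 with DMSO, a fall of 1.48 ± 0.25 (adjusted p = 2.51e-05). OIP5-AS1 had 4.87, 4.06, 4.72, 5.07 and 4.26 at 468 nM, against 4.75, 4.23, 4.76 and 4.43 in DMSO, and its log2 difference of 0.05 had a 95% interval of -0.42 to 0.53. The pair difference was 1.54 ± 0.25 (adjusted p = 2.03e-05). OIP5-AS1 had a mean log2 intensity of 4.70 over all arrays and was above log2 5 on only 7. This call thus sets the fall of OIP5 against a signal near background, where an unchanged level of OIP5-AS1 cannot be established. MID1IP1, a regulator of fatty acid synthesis, had 3.99, 2.68, 4.77, 3.77 and 3.95 with 468 nM, against 6.205, 5.89, 5.13 and 6.10 with DMSO, and fell by 2.002 (adjusted p = 6.07e-06), where MID1IP1-AS1 had -0.35. The difference of that pair was 1.65 ± 0.37 (adjusted p = 6.86e-04). MID1IP1-AS1 had a mean log2 intensity of 4.37 and was above log2 5 on only 4 arrays, so the same limit holds.

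TONSL, which acts at damaged replication forks, fell by 0.73 (adjusted p = 0.00861) and differed from TONSL-AS1 by 0.996 (adjusted p = 0.00873). TONSL-AS1 had a mean log2 intensity of 4.58 and was above log2 5 on only 7 arrays. Its pair difference too sets a fall of the sense gene against a signal near background. OTUD6B, a deubiquitinase gene, fell by 0.47 (adjusted p = 0.0275) and differed from OTUD6B-AS1 by 0.57 (adjusted p = 0.0138). The remaining 10 sense genes called alone had no called pair difference, with log2 differences between -0.73 for PAXIP1 and 0.86 for ZNF667. In 5 pairs the member alone was called, each higher: TMEM44-AS1, TRAM2-AS1, ZNF561-AS1, WAC-AS1 and DHRS4-AS1. TMEM44 had 5.61, 5.16, 5.41, 5.51 and 5.31 with 468 nM, against 5.42, 5.79, 4.76 and 5.92 with DMSO, a log2 difference of -0.07 with a 95% interval of -0.52 to 0.37. The pair differences were 1.41 for TMEM44-AS1 (adjusted p = 1.82e-04), 0.85 for TRAM2-AS1 (adjusted p = 0.00449) and 0.62 for WAC-AS1 (adjusted p = 0.0249), and were not called for the other 2. MRPL20-AS1, beside a mitochondrial ribosomal protein gene, differed from MRPL20 by 0.53 (adjusted p = 0.0326) with neither gene called.

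Some of these calls were lost when 1 array was left out. The WAC-AS1 pair lost its call without any 1 of DMSO 24 h replicates 1 and 3 or 468 nM 24 h replicates 2 and 4 (adjusted p up to 0.119), and the OTUD6B-AS1 pair without DMSO 24 h replicate 1 (0.0575). The MRPL20-AS1 pair lost it without DMSO 24 h replicates 2 and 3 or 468 nM 24 h replicates 3 and 5 (up to 0.131), and OTUD6B itself without DMSO 24 h replicates 1 and 3 or 468 nM 24 h replicates 3 and 5 (up to 0.0989). All 4 were also lost with only the compared groups in the fit (adjusted p between 0.0504 and 0.123), and the WAC-AS1 and MRPL20-AS1 pairs, PCNA-AS1 minus PCNA and OTUD6B without the filter (between 0.0525 and 0.0843).

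The member alone was called in 4 pairs at 468 nM and 4 h, the sense gene alone in 3 and neither in 36. CCNT2 rose early: it had 5.87, 5.76, 5.84, 6.01 and 6.13 with 468 nM, against 5.43, 5.29, 5.28 and 5.45 with DMSO, with no overlap and a rise of 0.56 ± 0.10 (adjusted p = 4.57e-04). CCNT2-AS1, which starts on the other strand with an overlapping promoter window, had 4.70, 3.68, 4.71, 4.15 and 4.38 at 468 nM, against 4.63, 4.70, 4.84 and 4.68 in DMSO. Its log2 difference of -0.39 was not called (adjusted p = 0.334), but the pair difference of -0.95 ± 0.24 was (adjusted p = 0.00891). All these CCNT2-AS1 values were below log2 5, so this call sets the rise of CCNT2 against a signal near background. CCNT2-AS1 is a member only through the 468 nM, 24 h arrays. With 75 nM CCNT2 rose by 0.54 at 4 h (adjusted p = 0.00726), the 1 sense gene called there. ZNF407 had -0.38 (adjusted p = 0.26), and the ZNF407-AS1 pair differed by -0.86 (adjusted p = 0.00681). ARHGAP5 had -0.29 (adjusted p = 0.247), and the ARHGAP5-AS1 pair differed by -0.82 (adjusted p = 0.032). The ARHGAP5-AS1 call was lost without any 1 of 468 nM 4 h replicates 2, 4 and 5 or DMSO 4 h replicates 2 and 4 (adjusted p up to 0.149), without the filter (0.0924) and with only the compared groups (0.0593), and the 75 nM call of CCNT2 without the filter (0.0549) and with the reference gene shift (0.0563).

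In RefSeq, 49 pairs had both promoters in the table. For 18 members the starts lay within 1000 bases of each other on opposite strands, and the promoter windows overlapped in 8 of these. For 28 the opposite-strand starts were farther apart, and 3 lay on the same strand as their sense gene: SLC9A3-OT1, KCNQ5-IT1 and FOXL3-OT1. The arrangement of the other 15 was not determined from that table. At 468 nM and 24 h, member and sense gene had log2 differences of the same sign in 6 of 13 tested pairs with close opposite starts, in 11 of 20 with distant opposite starts and in 2 of 2 on the same strand. Pair differences were called in 3 of the 13 and 6 of the 20. Of the 43 sense genes 10 (23.3%) were called higher and 17 (39.5%) lower at 468 nM and 24 h, against 20.4% and 25.1% of all genes. With the reference gene shift it was 5 and 17, beside the 1200 and 2472 of all genes. At 4 h 1 was higher and 2 lower, against 3.96% and 6.95% of all genes, and 1 and 8 with the shift. Over all 43 pairs the sign was the same in 22 at 24 h and in 26 at 4 h.

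Counting MMP25-AS1, 18 members were called higher at 468 nM and 24 h, and the 17 of them with a promoter in the table, all but ZNF213-AS1, had a median of 36 CpG dinucleotides. The 10 members called lower had a median of 16.5. A GC box was in 64.7% of these 17 promoters and in 20% of the 10 of members called lower. Among the 17, TMEM9B-AS1, PSMG3-AS1, CCNT2-AS1 and MMP25-AS1 are members only through the 468 nM, 24 h arrays. Their promoters held 3, 4, 4 and 4 GC boxes, so the values of the 17 are a description and not a test. Of the 7 members lower at 4 h that had a promoter in the table, 57.1% held a CCAAT box and 57.1% a GC box. Sense genes of members had a median of 30 CpG dinucleotides over 53 promoters, and 71.7% held a GC box.

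The counts were also read by brightness and by how a member passed the filter. Only 11 of the 64 were above log2 5 on all arrays, and 33 were above it on fewer than 14. At 468 nM and 24 h, among members with a mean below 5, 21.9% of 32 were called higher, against 13.4% of all tested genes in that range. With a mean of 5 to 6 it was 33.3% of 18 members, against 16.8% of all genes, and with 6 to 7 it was 27.3% of 11 members, against 20.9%. The shares called lower in these ranges were 12.5%, 16.7% and 27.3% of members and 22.2%, 22.3% and 24.6% of all genes, so that in the last range the members' share was the higher one. Of the 2 members above 7, 1 was called higher and 0 lower. The median log2 difference in these 3 ranges was 0.2429, 0.3992 and 0.4089 for members and -0.0757, -0.0520 and -0.0189 for all genes. Of the 64, 12 passed the filter only through the 468 nM, 24 h arrays, and 4 of these, TMEM9B-AS1, PSMG3-AS1, CCNT2-AS1 and MMP25-AS1, were called higher there. All 12 had a mean below 5. The members' share called higher and their median in that range are thus partly set by the filter and are a description. Without genes that passed only through these arrays, 14 of 52 members (26.9%) were called higher and 10 (19.2%) lower, against 20% and 25.6% of 9109 genes. The median was then 0.2697 for members and -0.0264 for all genes.

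The 5 members with the highest mean log2 intensity were SLC9A3-OT1, OTUD6B-AS1, FGD5-AS1, DHRS4-AS1 and AGAP2-AS1. OTUD6B-AS1 had 7.49, 7.67, 7.34, 7.74 and 7.59 with 468 nM, against 7.25, 7.57, 7.55 and 7.51 with DMSO at 24 h, a log2 difference of 0.09 with a 95% interval of -0.17 to 0.36. FGD5-AS1, a widely expressed long non-coding RNA, had 6.71, 6.73, 7.06, 6.73 and 6.75 at 468 nM, against 7.19, 6.94, 6.92 and 6.86 in DMSO. Its log2 difference of -0.18 was not called (95% interval -0.38 to 0.02, adjusted p = 0.131). AGAP2-AS1 had 6.39, 6.21, 6.44, 6.03 and 6.43 at 468 nM, against 7.28, 7.08, 6.57 and 7.05 in DMSO, and was the 1 of these 5 called lower there.

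Time in DMSO alone was compared as well. Between 24 h and 4 h, 2 of 63 were called (16 had an unadjusted p below 0.05), 1 higher and 1 lower, against 5.23% of all genes (2.63% higher and 2.61% lower), and both are named after their values were seen. DLGAP1-AS1 had 6.88, 7.13, 6.66 and 7.08 at 24 h, against 5.31, 5.83, 4.64 and 6.497 at 4 h, a rise of 1.37 (adjusted p = 0.0331). EMC3-AS1 had 5.24, 5.09, 5.03 and 5.04 at 24 h, against 6.56, 6.204, 5.81 and 5.53 at 4 h, a fall of 0.93 (adjusted p = 0.0391). The arrays of the times did not overlap for either gene. Leaving out any 1 of DMSO 4 h replicates 1, 2 and 3 or DMSO 24 h replicates 2 and 4 ended both calls, and leaving out DMSO 24 h replicate 3 ended that of EMC3-AS1 (adjusted p up to 0.147). Both were also lost without the filter (0.113 for DLGAP1-AS1 and 0.138 for EMC3-AS1). With the reference gene shift 6 members were called, all higher at 24 h, beside 718 higher and 60 lower of all 9285 genes, and EMC3-AS1 was not among the calls (0.0774).

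Other non-coding gene classes were read from the same fit. Of 35 tested genes with LINC symbols, for long intergenic non-coding RNAs, 9 (25.7%) were higher and 6 (17.1%) lower at 468 nM and 24 h, against 20.4% and 25.1% of all genes, with a median of 0.2175. LINC00963 fell by 1.09, LINC00941 by 2.01 and LINC01000 rose by 1.01. At 4 h 1 was higher, LINC02035, and 5 were lower, LINC00473, LINC00630, LINC00673, LINC00963 and LINC01220 (named by their calls, after the values were seen). Over all genes, 3.96% were higher and 6.95% lower at 4 h, the background for each class here at that time. Of 15 tested divergent transcripts (-DT), 2 were higher and 2 lower at 24 h, among them ZDHHC12-DT at 1.34, BOLA3-DT at -1.24 and RNASEH1-DT at -1.23, and the median was 0.2064. Of 10 tested small nucleolar RNA host genes, whose introns hold small nucleolar RNAs, 1 was higher and 4 lower, with SNHG17 at -1.25, SNHG33 at 0.95 and SNHG16 at -0.42. At 4 h 3 of these 10 were higher and 0 lower, SNHG1, SNHG5 and SNHG12, named after their values were seen. Of the -DT genes 0 were higher and 1 lower at 4 h, BOLA3-DT.

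**Figure D5:**
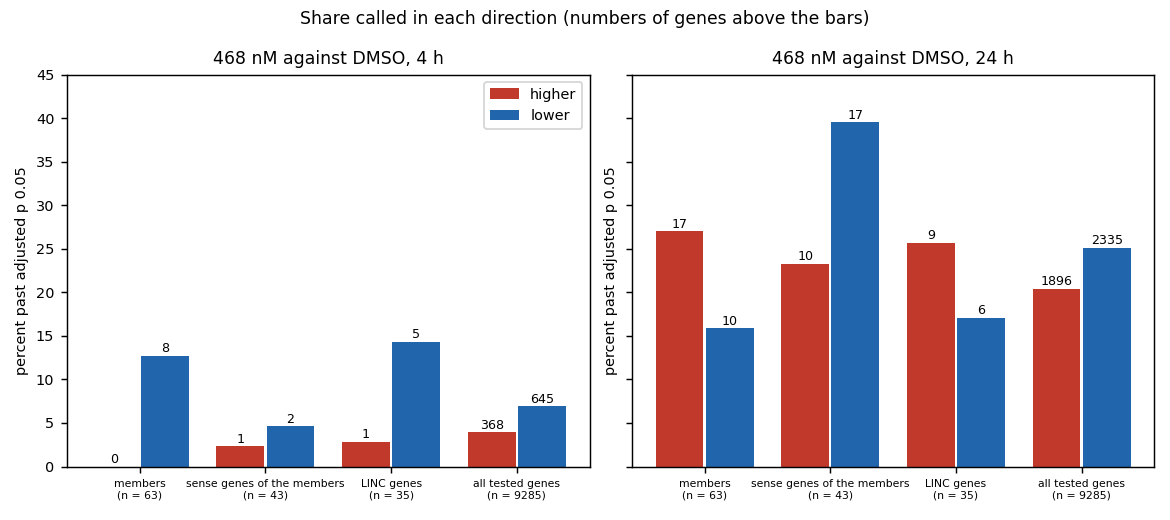
Percent of genes called higher (red) or lower (blue) at 468 nM against DMSO at 4 h (left) and 24 h (right), for members, their tested sense genes, LINC genes and all tested genes, with the number called above each bar. At 24 h 17 members were higher and 10 (15.9%) lower, against 20.4% and 25.1% of all tested genes.

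Genes whose products remove or terminate such transcripts were read from the same fit. Of the 20 listed genes of the nuclear exosome and its NEXT and PAXT adaptors, which degrade short-lived non-coding RNA, 17 were tested, and at 468 nM and 24 h 10 (58.8%) were lower and 1 (5.88%) higher, against 25.1% and 20.4% of all genes, with a median of -0.4120. The exosome subunit genes EXOSC9, EXOSC5 and EXOSC8 fell by 0.89, 1.06 and 0.93 (adjusted p = 5.67e-06, 1.58e-05 and 1.04e-04), and at 4 h 1 gene of the list was higher, TENT4B, and 1 lower, ZCCHC8. Over all genes, 3.96% were higher and 6.95% lower at 4 h. Of 21 tested genes of the Integrator complex and transcription termination, 2 were higher and 2 lower at 24 h, with INTS8 at 0.63, INTS1 at 0.47 and CPSF4 at -0.50. Of 14 tested BET and P-TEFb genes, 9 were higher and 1 lower, with HEXIM1 at 1.30, ELL2 at 0.81 and MLLT3 at 1.001, and with the reference gene shift 5 were higher and 2 lower. The part of these changes in the levels of the members was not tested.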

How the data were processed

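RNA of CHL-1 cells was hybridised to Affymetrix arrays, 1 per sample. The authors' deposited table gives a linear intensity for each of 53617 probe sets, made with RMA per the submitters' processing notes; its version is not given in the sources used here. Here log2 was taken of the deposited intensity. Probe sets naming 1 gene were used, 1 per gene (23871 of 53617 had 1 symbol, 1842 several and 27904 none), with symbols updated through gene ID. The filter of log2 above 5 on at least 4 arrays left 9285 genes, fitted with 6 group means over 28 arrays in limma 3.58.1 (R 4.3.3; 22 residual degrees of freedom). Pair differences and the second MMP25-AS1 probe set were added to the same table (9329 rows). The procedure was tested on simulated data. Named were members past the threshold in a comparison with DMSO (at most 30), called pair differences (at most 15), members at the filter's edge, the 5 brightest, and the top 3 of each list. The members and lists were chosen with earlier results of these data known. Alternatives were other filters, repeated quantile normalization, a shift by reference genes, probe set means, fewer groups, the replicate block and leaving out each array. The number of arrays limits the precision. Promoters are from RefSeq, GRCh38.p14. Tables and figures used Python 3.11.15, pandas 2.3.3, numpy 2.4.6 and matplotlib 3.10.9.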

Additional observations from a re-analysis of the deposited data

Results flagged for a closer look

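On single arrays, 14 of 228 groups of 4 or 5 arrays held a value set apart from the rest of its group by Dixon's criterion, which chance alone meets in about 1 in 20 groups. In DMSO at 24 h, 1 array was at 7.30 for ARHGAP5-AS1 (the others 6.70 to 6.78), at 5.29 for ATP6V0E2-AS1 (6.18 to 6.36) and at 4.39 for CCNT2-AS1 (4.88 to 4.98). In DMSO at 4 h, 1 array was at 3.58 for TMEM9B-AS1 (3.71 to 3.74) and at 5.98 for ZNF407-AS1 (5.28 to 5.38). With 468 nM at 24 h, 1 array was at 7.06 for FGD5-AS1 (6.71 to 6.75), at 5.43 for KCNQ5-IT1 (4.31 to 4.52), at 6.19 for MRPL20-AS1 (5.80 to 5.90) and at 2.80 for SERTAD4-AS1 (3.75 to 4.11). With 468 nM at 4 h, FOXD2-AS1 had 1 array at 5.75 (4.94 to 5.09). With 75 nM, RHPN1-AS1 had 1 array at 3.88 at 4 h (5.15 to 5.39) and 1 at 6.27 at 24 h (5.86 to 5.94). TMEM44-AS1 had 1 at 3.93 at 4 h (4.74 to 5.05), and TRAM2-AS1 had 1 at 4.48 at 24 h (4.93 to 5.08).

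The effect of 468 nM differed between 24 h and 4 h by limma's interaction test for 19 of the 63 members in the tested table. That is 30.2%, against 23.5% of all genes. The value of MMP25-AS1, from the wider table, is given below as a description. The effect at 24 h minus that at 4 h was 2.63 for LPP-AS2, 1.66 for TMEM9B-AS1, 1.62 for RHPN1-AS1 and 1.59 for SLC9A3-OT1, with adjusted p between 1.04e-05 and 0.00148. It was 1.30 for ARHGAP5-AS1, 1.22 for SNAI3-AS1, 1.22 for CCNT2-AS1, 1.16 for TMEM44-AS1, 1.14 for ZNF407-AS1 and 1.12 for GABPB1-AS1 (adjusted p between 3.82e-04 and 0.0069). It was 1.06 for WAC-AS1, 1.06 for TRAM2-AS1, 1.01 for CKMT2-AS1, 0.85 for ZNF561-AS1 and 0.75 for ASB16-AS1 (adjusted p between 0.00668 and 0.0489). The difference was negative for PCNA-AS1 at -1.50, FOXD2-AS1 at -1.43, TMPO-AS1 at -1.03 and KCNQ5-IT1 at -0.94 (adjusted p between 0.00125 and 0.0428). TMEM9B-AS1 and CCNT2-AS1, like MMP25-AS1, are members only through the 468 nM, 24 h arrays that enter this difference. Their values of 1.66, 1.22 and 1.19, in this order, are therefore a description and not a test. The call of ASB16-AS1 was lost in 13 fits that each left out 1 array (adjusted p up to 0.118) and that of KCNQ5-IT1 in 13 (up to 0.0979).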

How the results depend on the processing

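Of 97 named values past the threshold, 72 stayed past it under every alternative run, and none changed direction. Calls were lost for 21 without the filter on dim genes, 16 with only the compared groups in the fit, 7 with the reference gene shift, 2 with quantile normalization repeated and 0 with the mean of all probe sets. Leaving out 1 array ended a call in 104 of 1051 fits. The numbers of members called ranged over these fits from 23 to 30 for 468 nM at 24 h, 6 to 8 for 468 nM at 4 h, 1 to 2 for 75 nM at 24 h and 0 to 0 for 75 nM at 4 h. They ranged from 17 to 21 for the 468 nM time difference, 0 to 0 for that of 75 nM, 16 to 20 between the doses at 24 h, 1 to 3 between them at 4 h and 0 to 2 for time in DMSO. Pair differences ranged from 10 to 15 for 468 nM at 24 h and 2 to 4 at 4 h. With 75 nM, 0 pair differences were called in any of these fits. A filter at log2 7 left 9 members and 3 pairs, of which were called 5 members for 468 nM at 24 h, 2 at 4 h, 1 for 75 nM at 24 h, 5 for the 468 nM time difference, 2 and 1 between the doses at 24 h and 4 h, 1 for time in DMSO, and 0 and 1 pairs for 468 nM at 24 h and 4 h. Without the filter 1 member was called for 75 nM at 24 h, 0 between the doses at 4 h and 0 for time in DMSO. With only the compared groups these 3 counts were each 1, and with the reference gene shift 6 members were called for time in DMSO. With the shift, 15 members were higher and 10 lower at 468 nM and 24 h, and 0 and 9 at 4 h. Of all 9285 genes the shift gave 1200 higher and 2472 lower at 24 h, and 179 and 890 at 4 h. The block is the run of sample numbers in the labels, not the replicate numbers used here. Deviations of arrays of 1 run correlated between -0.127 and 0.345 over 66 pairs (median 0.098, 33 above 0.1; -0.020 between runs), and 22 of 28 arrays correlated best with their own run. That is a hint of pairing from the data, which the labels do not state. With the replicate block 28 members were called for 468 nM at 24 h and 10 at 4 h, with 13 and 4 pair differences, and of the named calls ASB16-AS1 lost its time difference (adjusted p = 0.0556). The share over all genes was not counted with the block, the other filters, only the compared groups or 1 array left out. Counts in these settings are therefore not set against a background and do not set members apart from other genes. Of the 64 members 33 were above log2 5 on fewer than 14 arrays, so signal near background limits what these arrays can show.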
